A study of Mus musculus with 27 samples.

Results

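The regions described here are stretches of open chromatin that lost accessibility when Runx1 was deleted and that carried a Runx1 peak before the deletion. They were found by intersecting the deposited list of closing ATAC-seq regions with the deposited list of Runx1 ChIP-seq peaks of control cells, with an overlap of at least 1 bp counted as bound. Of 8741 closing regions 1028 were bound (11.8%), among 55649 open regions in the closing, opening and stable lists together. The cells were mK4, a mouse line with features of the metanephric mesenchyme of the embryonic kidney, grown in medium with 10% fetal bovine serum. Control cells were compared with Runx1KO cells, in which guide RNAs were used with CRISPR/Cas9 to delete exon 3 of Runx1, and with ZebDKO cells, which lost exon 2 of Zeb1 and exon 1 of Zeb2. Each line had 3 RNA-seq libraries, control and Runx1KO cells had 3 ATAC-seq libraries each, and Runx1 and Runx2 antibodies were each used on 3 control and 3 Runx1KO samples. Each line was grown as 3 cultures for RNA. The number of clones behind a line is not given in the sources used here, so clone and genotype cannot be told apart and p-values measure only the spread between cultures.

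Runx1, Runx2 and Runx3 are transcription factors that bind DNA together with the shared partner Cbfb, at sites whose core reads TGTGGT, or ACCACA on the opposite strand. They can recruit activators as well as Groucho/Tle corepressors, and they often bind enhancers next to AP-1, the Fos and Jun dimers that recognise TGAGTCA or TGACTCA. The ATAC-seq assay marks DNA that is open to a transposase, so a closing region is one where less DNA was open in Runx1KO cells.

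The sequences that follow are 200 bp windows around the summit of the strongest Runx1 peak in a region, read 5′ to 3′ on the plus strand of the mm9 genome, with TGTGGT or ACCACA and TGAGTCA or TGACTCA in capitals. The first set shows the range of motif content among the strongest members. The window with the highest Runx1 enrichment, 13.9-fold over background, lay in an intron of the cadherin gene Fat1 at chr8:46081982-46082181 and held the Runx core 2 times. The next, at chr17:81171927-81172126 between genes near the kinase gene Map4k3, was enriched 13.6-fold and held a Runx core and an AP-1 site. The strongest member with an AP-1 site alone lay in an intron of Gm17231 at chr9:57630573-57630772 (10.8-fold), and the strongest with neither in an intron of 1810013L24Rik at chr16:8846261-8846460 (10.5-fold). The strongest member without a Runx2 peak in either line lay in an intron of Vsnl1, a neuronal calcium sensor gene, at chr12:11399407-11399606 (5.84-fold) and held a Runx core.
Fat1 intron, Runx alone: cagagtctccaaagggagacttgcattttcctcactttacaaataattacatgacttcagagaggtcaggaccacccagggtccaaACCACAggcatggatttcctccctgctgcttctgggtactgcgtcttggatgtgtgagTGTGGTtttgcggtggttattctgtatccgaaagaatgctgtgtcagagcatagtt
near Map4k3, Runx and AP-1: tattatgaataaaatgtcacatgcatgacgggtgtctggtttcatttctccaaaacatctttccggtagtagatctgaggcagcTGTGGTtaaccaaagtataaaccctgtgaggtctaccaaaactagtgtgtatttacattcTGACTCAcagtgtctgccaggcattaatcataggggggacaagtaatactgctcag
Gm17231 intron, AP-1 alone: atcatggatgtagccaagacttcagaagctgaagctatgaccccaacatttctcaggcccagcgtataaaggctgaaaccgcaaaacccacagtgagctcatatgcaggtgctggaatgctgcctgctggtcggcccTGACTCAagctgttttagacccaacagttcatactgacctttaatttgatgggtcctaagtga
1810013L24Rik intron, neither motif: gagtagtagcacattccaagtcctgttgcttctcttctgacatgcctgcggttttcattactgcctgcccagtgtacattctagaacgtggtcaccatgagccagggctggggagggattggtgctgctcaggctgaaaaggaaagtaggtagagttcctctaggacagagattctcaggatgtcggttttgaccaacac
Vsnl1 intron, no Runx2 peak: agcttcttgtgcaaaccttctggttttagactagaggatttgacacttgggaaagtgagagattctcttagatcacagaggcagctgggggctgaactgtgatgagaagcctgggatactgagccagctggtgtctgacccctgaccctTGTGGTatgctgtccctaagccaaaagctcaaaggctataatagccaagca

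The second set holds the strongest member placed near each of 9 genes whose loci the study itself displays, since the expression results below return to them. These windows were at chr15:7812914-7813113 for Gdnf, chr12:10238086-10238285 for Osr1, chr3:130653917-130654116 for Lef1, chr1:121301273-121301472 for Inhbb, chr1:93474545-93474744 for Twist2, chr4:63737399-63737598 for Tnc, chr11:98938202-98938401 for Igfbp4, chrX:139935960-139936159 for Pak3 and chr9:22114093-22114292 for Zfp810. All lay between genes except that of Igfbp4, which lay in an intron of Tns4. The gene given is one whose domain held the region, not always the nearest, and no action on it is shown. The Osr1 region lay 657217 bp from Osr1 and 138314 bp from a start of Nt5c1b. The Twist2 region lay 223374 bp from Twist2 and 36934 bp from a start of Asb1. The Igfbp4 region lay 35738 bp from Igfbp4 and 1641 bp from a start of Tns4. The Runx core was present in 8 of the 9 windows and absent from that of Inhbb, and the Twist2 window was the only one of the 9 with an AP-1 site.
Gdnf: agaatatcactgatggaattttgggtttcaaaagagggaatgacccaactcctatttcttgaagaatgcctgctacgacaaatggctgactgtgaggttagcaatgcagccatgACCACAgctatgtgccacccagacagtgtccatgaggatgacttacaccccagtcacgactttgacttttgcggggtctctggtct
Osr1: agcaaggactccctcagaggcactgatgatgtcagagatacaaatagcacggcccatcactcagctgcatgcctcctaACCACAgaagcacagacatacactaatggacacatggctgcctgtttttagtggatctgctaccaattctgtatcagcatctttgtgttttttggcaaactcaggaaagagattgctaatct
Lef1: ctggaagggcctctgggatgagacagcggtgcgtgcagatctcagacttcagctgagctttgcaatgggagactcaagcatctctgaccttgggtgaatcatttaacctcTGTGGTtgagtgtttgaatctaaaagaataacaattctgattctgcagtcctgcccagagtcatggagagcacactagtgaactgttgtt
Inhbb: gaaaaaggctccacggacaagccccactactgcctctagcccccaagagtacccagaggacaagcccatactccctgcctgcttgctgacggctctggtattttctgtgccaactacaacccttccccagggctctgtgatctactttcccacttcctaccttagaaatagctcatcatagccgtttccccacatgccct
Twist2: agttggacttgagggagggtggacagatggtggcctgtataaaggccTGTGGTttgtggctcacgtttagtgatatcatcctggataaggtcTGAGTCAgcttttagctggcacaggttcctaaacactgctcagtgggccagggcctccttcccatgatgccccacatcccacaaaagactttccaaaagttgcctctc
Tnc: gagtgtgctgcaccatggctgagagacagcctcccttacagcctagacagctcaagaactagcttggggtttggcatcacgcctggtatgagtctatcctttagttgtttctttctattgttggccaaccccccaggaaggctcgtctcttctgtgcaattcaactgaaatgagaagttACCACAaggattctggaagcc
Igfbp4: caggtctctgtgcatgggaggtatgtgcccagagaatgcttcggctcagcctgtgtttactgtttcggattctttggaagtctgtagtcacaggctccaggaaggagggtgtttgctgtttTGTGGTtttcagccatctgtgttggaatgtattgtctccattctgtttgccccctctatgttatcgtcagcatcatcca
Pak3: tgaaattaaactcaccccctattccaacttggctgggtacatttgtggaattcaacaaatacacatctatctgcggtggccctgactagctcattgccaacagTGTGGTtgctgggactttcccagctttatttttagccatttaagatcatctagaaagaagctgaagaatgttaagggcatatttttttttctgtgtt
Zfp810: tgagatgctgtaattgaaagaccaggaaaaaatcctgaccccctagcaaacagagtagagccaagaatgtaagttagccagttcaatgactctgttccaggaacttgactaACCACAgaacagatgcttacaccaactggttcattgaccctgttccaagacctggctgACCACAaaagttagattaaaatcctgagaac

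The first question was where Runx1 sat relative to the chromatin classes. Of 10187 Runx1 peaks, 1061 (10.4%) overlapped a closing region, 4037 (39.6%) a stable region, 119 (1.17%) an opening region and 4970 (48.8%) none of the listed regions. Read from the regions, a Runx1 peak was present in 11.8% of closing regions, 10.3% of stable regions (3843 of 37481) and 1.25% of opening regions (118 of 9427). A single peak overlapped 996 of the 1028 closing bound regions, 31 had 2 peaks and 1 region near Tnrc18 had 3. The smallest overlap was 10 bp and the median 237 bp, and the nearest closing region left outside missed a Runx1 peak by 62 bp. The summit lay inside the region in 1023 of the 1028.

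Closing bound regions were for the most part distal. Only 59 (5.74%, Wilson 95% interval 4.48 to 7.33) had their middle within 1 kb of a transcription start of a protein-coding gene, against 56.6% of stable bound regions and 7.65% of the other closing regions. Introns held 457 (44.5%) and the space between genes 488 (47.5%), while 9 lay in coding exons and 15 in untranslated exons. The median distance to the nearest start was 26.6 kb, compared with 25.1 kb for the other closing regions. Because stable bound regions were largely promoters, the 1668 of them farther than 1 kb from a start serve below as the distal comparison, a choice made after the data were seen. Runx1 enrichment at the strongest peak ran from 2.17-fold to 13.9-fold over background with a median of 5.15, and the medians were 4.80 for all stable bound regions and 4.96 for the distal ones. All intervals on shares cover counting error only, since the peak lists were called on pooled replicates and hold no value per replicate, and their sequencing depth is unknown.

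**Figure D1:**
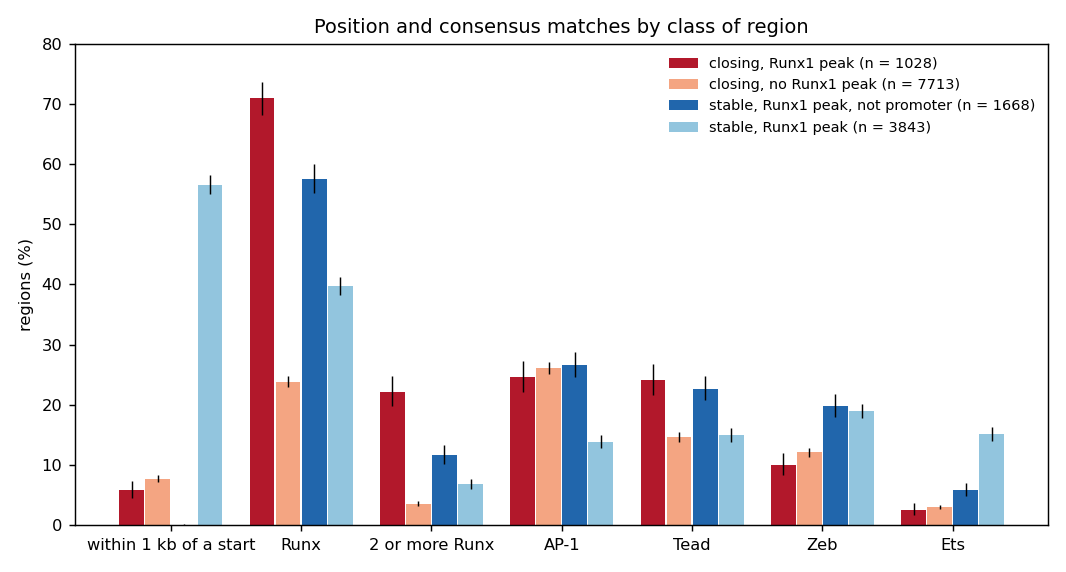
Share of regions (percent, vertical axis) that lie within 1 kb of a transcription start or hold each motif (horizontal axis), as bars from 0 for closing regions with and without a Runx1 peak and for distal and all stable regions with one, with Wilson 95% intervals as lines. The distal class has no bar at the start because regions near a start were left out of it. The Runx core was found in 71.0% of the closing bound regions and 57.6% of the distal stable bound ones, while the AP-1 shares were 24.6% and 26.6%.

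A larger share of closing bound regions held a Runx core than of any class they were compared with. Regions without a Runx1 peak have no summit, so their windows were taken around the middle of the region. TGTGGT was present on either strand in 730 (71.0%, 68.2 to 73.7), against 57.6% (55.2 to 59.97) of distal stable bound regions, 39.7% of all stable bound regions, 23.8% of the other closing regions and 17.9% of all open regions. When closing bound regions too were searched around the middle, 50% held the core, which is the like value for the 23.8%. The longer form TGTGGTT, which contains the core, was found in 44.5% of closing bound and 31.4% of distal stable bound windows. At least 2 cores were present in 228 windows (22.2%, 19.7 to 24.8), compared with 11.6% (10.2 to 13.3) of distal stable bound windows. The distal regions were also split into 4 bins by the fold of Runx1, cut into about equal numbers of closing bound regions. From the lowest to the highest bin, the core was present in 65.0%, 68.4%, 72.6% and 79.2% of closing bound regions and in 49.7%, 56.1%, 61.8% and 64.7% of stable bound regions. The closing share was the higher of the pair in every bin.

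AP-1 sites were about as frequent in closing bound regions as in distal stable bound regions. They were present in 253 windows (24.6%, 22.1 to 27.3), beside 26.6% of distal stable bound and 26.1% of the other closing windows, 21.4% of all open regions and 13.8% of all stable bound windows. Searched around the middle, as the other closing regions were, 20.9% of closing bound regions held an AP-1 site. The Tead core GGAATG was found in 24.1% of closing bound and 22.7% of distal stable bound windows, against 13.2% of all open regions. The Zeb E-box, searched as CAGGTA or CAGGTG, was rarer in closing bound windows (102 windows, 9.92%, 8.24 to 11.9) than in distal stable bound windows (19.7%, 17.9 to 21.7), and closer to the other closing windows (12.1%, or 11.7% of closing bound regions when these too were searched around the middle). The Ets core CCGGAA was also rarer, with 2.53% of closing bound, 5.82% of distal stable bound and 15.1% of all stable bound windows, while the other closing windows gave 2.94%. By the combination of Runx and AP-1, 184 closing bound windows (17.9%) held both, 546 (53.1%) Runx alone, 69 (6.71%) AP-1 alone and 229 (22.3%) neither.

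**Figure D2:**
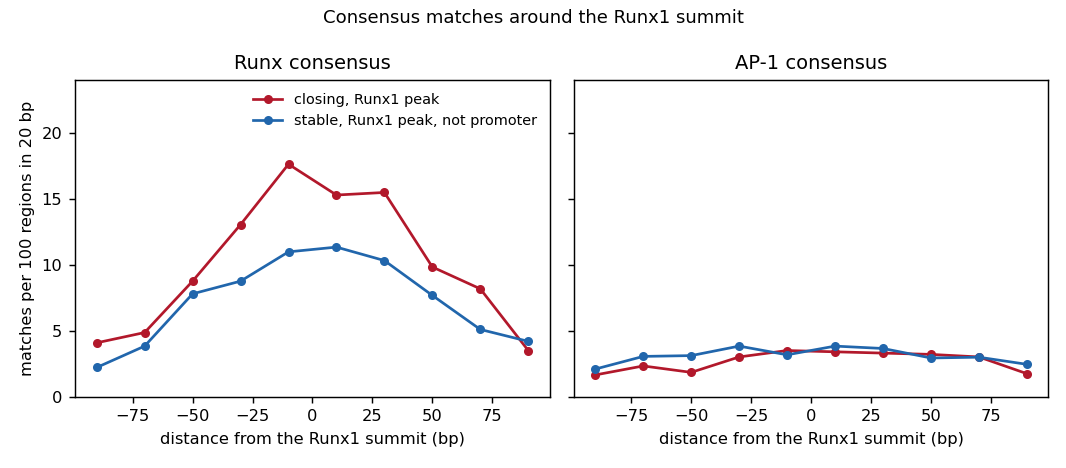
Matches to the Runx core (left) and AP-1 (right) per 100 regions in bins of 20 bp (vertical axis) against the distance from the Runx1 summit in bp (horizontal axis), for closing bound and distal stable bound regions. In closing bound regions the Runx core peaked at 17.6 matches per 100 regions in the bin centred 10 bp before the summit.

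Runx cores lay close to the point of strongest Runx1 signal. In the 730 closing bound windows with a core, the nearest one was a median of 24 bp from the summit, with 51.9% within 25 bp and 81.0% within 50 bp. The same median was 28 bp in distal stable bound windows. AP-1 sites lay farther out, at a median of 36.5 bp, and in the 184 windows with both the median gap between the motifs was 29 bp. In the printed windows the nearest core was 6 bp from the summit at Pak3, 11 bp at Fat1 and 82 bp at Tnc.

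A further question was whether Runx2 stayed on these regions once Runx1 was gone. In control cells 985 of the 1028 (95.8%, 94.4 to 96.9) overlapped a Runx2 peak, and in Runx1KO cells 858 did (83.5%, 81.1 to 85.6). Both lists covered 841, the control list alone 144 (14.0%), the Runx1KO list alone 17 (1.65%) and neither 26 (2.53%). Distal stable bound regions overlapped a Runx2 peak in 93.5% of cases in control cells and 87.5% (85.8 to 89.0) in Runx1KO cells, whereas 11.6% and 11.5% of the other closing regions did. These shares depend on the overlap asked for. When peaks had to cover 50% of the region, 54.4% of closing bound regions had Runx2 in control and 44.4% in Runx1KO cells. The Runx2 libraries were not scaled to each other, so the height of the peaks was not compared between the lines.

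**Figure D3:**
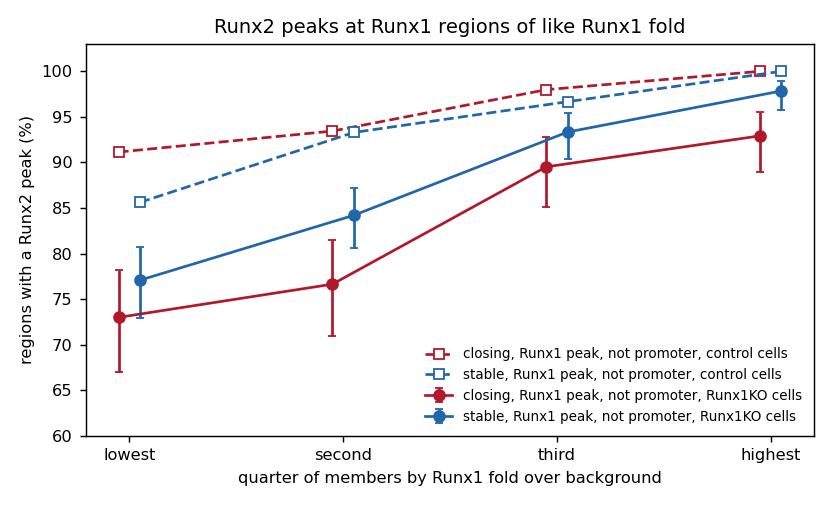
Share of distal regions with a Runx2 peak (percent, vertical axis) in control and in Runx1KO cells, by 4 bins of Runx1 fold over background, cut into about equal numbers of closing bound regions (horizontal axis), with Wilson 95% intervals on the Runx1KO points. The vertical axis starts at 60%. In Runx1KO cells the shares rose from 73.0% to 92.9% in closing bound regions and from 77.1% to 97.8% in stable bound regions.

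Regions with weaker Runx1 peaks were less often covered by Runx2 in Runx1KO cells. In the 4 bins of rising Runx1 fold the share was 73.0% (67.0 to 78.2), 76.6% (70.9 to 81.5), 89.5% (85.1 to 92.7) and 92.9% (89.0 to 95.5) for distal closing bound regions. Distal stable bound regions gave 77.1% (73.0 to 80.7), 84.2% (80.6 to 87.2), 93.3% (90.4 to 95.4) and 97.8% (95.8 to 98.9). The intervals of the classes overlapped in the first 3 bins, narrowly so in the second, and were apart in the highest. With both motifs 90.8% (85.7 to 94.2) of closing bound regions had a Runx2 peak in Runx1KO cells, with AP-1 alone 89.9% (80.5 to 94.998), with Runx alone 82.6% (79.2 to 85.5) and with neither 77.7% (71.9 to 82.6).

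The 170 closing bound regions without Runx2 in Runx1KO cells differed from the 858 with it in several measures. An AP-1 site was present in 14.1% of the 170 and 26.7% of the 858, and a Runx core in 65.9% and 72.0%. Their median Runx1 fold was 4.55 against 5.29, and their median width 629.5 against 746.5 bp. The strongest of the 170 was at Runx1 itself, at chr16:92696747-92698290, where the region overlapped a transcription start of the gene. Runx1 was enriched 9.30-fold and Runx2 8.80-fold there in control cells, with an AP-1 site and no Runx core in the window. The target sites of both guides for exon 3 lie outside this region, 729 and 1007 bp away.

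Closing bound regions tended to have other closing regions near them. Within 50 kb, 684 (66.5%, 63.6 to 69.4) had another closing region, against 63.2% of the other closing regions, 54.2% of distal stable bound regions and 44.4% of all open regions. At least 3 such neighbours were found for 210 (20.4%), compared with 11.8% of distal stable bound regions. The median number of such neighbours was 1, with quartiles of 0 and 2, in closing bound, other closing and distal stable bound regions alike. Opening regions were within 50 kb of 423 (41.1%), against 59.7% of distal stable bound regions. Another closing bound region was within 50 kb for 172 (16.7%), and linking these gave 68 pairs, 8 groups of 3 and 3 groups of 4. One group of 4 spanned chr19:18804943-18869395 near Rorb, a nuclear receptor gene, and Trpm6, a magnesium channel gene, with Runx1 folds of 4.37, 6.29, 7.36 and 7.30.

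For expression, each region was given to the genes whose regulatory domain held it, a domain being 5 kb upstream and 1 kb downstream of the start and extended up to 1000 kb to the neighbouring gene. This placed 1027 of the regions near 1566 genes, of which 1469 were in the RNA-seq table and 1089 passed the filter of 1 TPM in at least 3 of the 6 control and Runx1KO libraries. TPM is a transcript level scaled to gene length and library total, and a gene is called lower or higher when its log2 fold change of TPM + 1 passed 1 in size with a Benjamini-Hochberg adjusted p under 0.05 in limma. Of the 1089, 159 were lower in Runx1KO cells (14.6%, 12.6 to 16.8), where 5.17% of all tested genes with a position were. Only 50 were higher (4.59%, 3.50 to 6.002), where 7.71% of all were. The median log2 fold change was -0.16 near closing bound regions and -0.06 over all tested genes. Each p-value rests on 3 libraries a line, and placing by distance does not show which gene a region acts on.

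The filter bears on these counts, because 60 of the 159 lower genes passed it through the control libraries alone and so had to differ. Among genes named below, this held for Osr1, Zeb1, Zeb2, Gdnf, Slit2, Inhbb, Gli2, Pak3, Zfp810, Sema5a, Kif26b and Bmf. It also held for Lef1, Wnt5a, Sfrp2, Col3a1 and Igfbp4, while Acox2 and Wnt11 passed through Runx1KO libraries alone. Itgb3 and Loxl2, not called at the main settings, likewise passed through control libraries alone. For all these genes the levels are a description, and the p-values and calls of Runx1KO against control add no support. Among the 999 genes near a closing bound region with at least 1 TPM in a library of each line, 99 were lower (9.91%, against 3.15% of all such genes) and 35 higher (3.50%, against 4.87%). By the number of closing bound regions near a gene, the share lower in Runx1KO cells was 4.20% of 10588 genes with no closing bound region, 13.6% (11.4 to 16.03) of 855 with 1, 17.7% (12.8 to 24.05) of 175 with 2 and 20.3% (12.04 to 32.3) of 59 with 3 or more, so that the last 3 intervals overlapped. In genes with at least 1 TPM in a library of each line these shares were 2.47% of 9897, 9.39% (7.55 to 11.6) of 788, 12.03% (7.84 to 18.02) of 158 and 11.3% (5.29 to 22.6) of 53, again with overlapping intervals from 1 region on.

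**Figure D4:**
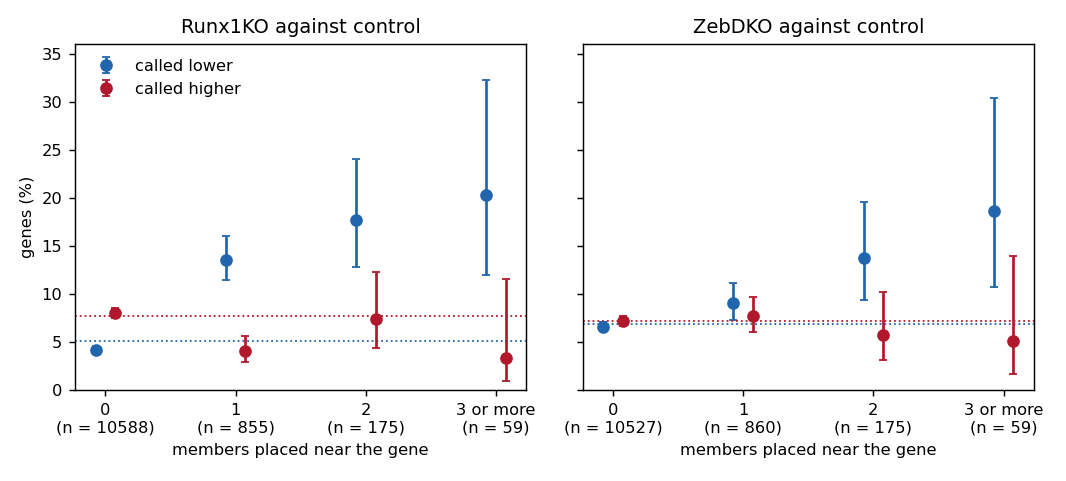
Percent of tested genes lower or higher in Runx1KO and ZebDKO cells (vertical axis) by the number of closing bound regions placed near the gene (horizontal axis), with Wilson 95% intervals and dotted lines at the share of all tested genes. The lower share in Runx1KO cells was 4.20% with no such region and 20.3% with 3 or more. The points include genes that passed the filter through 1 line alone. In genes with at least 1 TPM in a library of each line, not drawn, these 2 shares were 2.47% and 11.3%.

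Other closing regions near the same genes went with part of this pattern. Genes with both a closing bound region and another closing region were lower in 139 of 825 cases (16.8%), those with a closing bound region alone in 20 of 264 (7.58%, 4.96 to 11.4), those with another closing region alone in 283 of 3100 (9.13%, 8.17 to 10.2) and those with neither in 162 of 7488 (2.16%). With at least 1 TPM in a library of each line these shares were 11.7% of 752, 4.45% (2.50 to 7.80) of 247, 5.35% of 2860 and 1.29% of 7037. Near distal stable bound regions 99 of 1706 genes were lower (5.80%). Counted by region, 206 of the 1028 closing bound regions (20.04%, 17.7 to 22.6) had a gene lower in Runx1KO cells beside them, against 19.01% of the other closing regions and 7.79% of distal stable bound regions. Genes near a region that kept Runx2 were lower in 144 of 955 cases (15.1%) and those near a region that had none in 27 of 209 (12.9%, 9.03 to 18.1). A gene near regions of both kinds counts in each group, and both counts include genes that passed the filter through control libraries alone. The counts by region and near distal stable bound regions were likewise not limited to genes with at least 1 TPM in a library of each line. They are therefore not like values for the shares that were.

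ZebDKO cells, in which Runx1 was not targeted, were measured against the same controls. Of 1094 tested genes near a closing bound region, 113 were lower (10.3%, 8.66 to 12.3, where 6.94% of all were) and 79 higher (7.22%, 5.83 to 8.91, where 7.17% of all were). The median log2 fold change over all genes in ZebDKO cells was -0.18 as deposited and 0.00 after median-ratio scaling. That scaling gave 84 lower (7.68%, where 4.79% of all were) and 102 higher genes near closing bound regions (9.32%, where 8.67% of all were), so the order of lower and higher counts turned. In Runx1KO cells it gave 152 lower (where 4.86% of all were) and 55 higher (where 8.09% of all were). Of the 1040 with at least 1 TPM in a library of each line, 93 were lower in ZebDKO cells (8.94%, against 6.15% of all such genes) and 61 higher (5.87%, against 4.75%). Both knockouts were compared with the same 3 control libraries, so their values are given side by side and their overlap was not tested.

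Some markers of other cell types moved with the knockouts. None of the 14 epithelial, 6 blood and 4 endothelial markers was placed near a closing bound region. The 8 epithelial genes that passed the filter were higher in Runx1KO cells, most of them genes that passed it through Runx1KO libraries alone, so their levels are given as a description. The summed levels of all 14 were 4.6 to 7.1 TPM in control, 2680 to 2762 in Runx1KO and 1292 to 1355 in ZebDKO libraries. Krt8, a keratin of simple epithelia, made up most of that sum, while Cdh1 stayed at or under 0.6 TPM. Epcam was at 0 in control and Runx1KO libraries and at 26.7 to 28.8 TPM in ZebDKO libraries. The sum of blood markers was 2.5 to 3.3 TPM in control cells and 30.9 to 32.8 TPM after Runx1 deletion, there almost all Csf1r. In ZebDKO libraries that sum was 26.2 to 29.4 TPM, with Csf1r at 23.1 to 26.1. Ptprc was at 0 in every library and Cd68 at 1.8 to 2.5 TPM in control and Runx1KO libraries. Of the endothelial markers Cdh5 was lower in Runx1KO cells, at 2.8 to 4.4 TPM in control and 1.0 to 1.2 TPM in Runx1KO cells, and the others stayed at or under 0.2 TPM. Of 7 stromal markers, Vim was at 2749 to 2887 TPM in control, 2782 to 2845 in Runx1KO and 2076 to 2114 in ZebDKO libraries. Pdgfra and Thy1 stayed under 1 TPM in each line, and Col3a1, also near closing bound regions, was lower in both knockouts. The part of these shifts in the results below was not tested, and in bulk RNA fewer cells of a type and less RNA per cell cannot be told apart.

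Runx1 itself was checked first. Its level was 18.7, 15.6 and 17.9 TPM in control, 30.3, 30.1 and 28.5 in Runx1KO and 9.4, 10.5 and 10.4 in ZebDKO libraries. Every Runx1KO library lay above every control library, a log2 fold change of 0.74 (SE 0.07, adjusted p 6.72e-05, limma) that stayed under the 2-fold limit. TPM over the whole gene says nothing of the loss of exon 3. Runx2, which had no closing bound region near it, stood at 6.0, 4.9 and 5.5 TPM in control and 3.9, 3.7 and 3.6 in Runx1KO libraries (log2 fold change -0.45, SE 0.08, adjusted p 0.00175), also under the limit. The Runx partner Cbfb measured 83.0, 75.5 and 76.1 against 73.3, 71.4 and 74.3 TPM. Of the corepressors, Tle3 had a log2 fold change of -0.94 and Tle4 of 0.95 in Runx1KO cells, neither past the limit, though Tle4 passed it under some other settings.

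**Figure D5:**
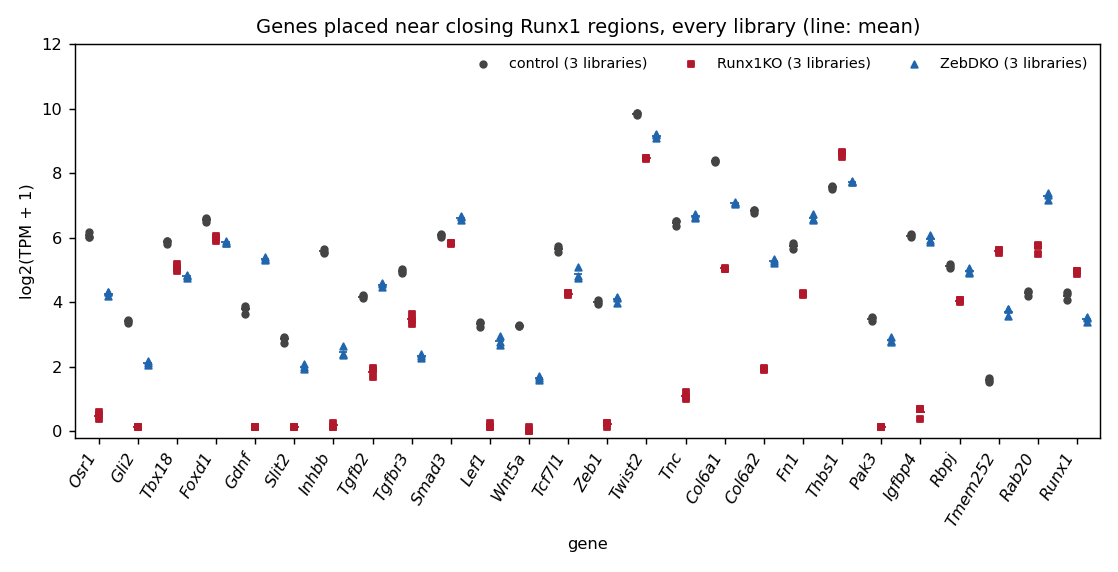
Level of named genes near closing bound regions (horizontal axis) as log2 of TPM + 1 (vertical axis), with 1 point for each of 3 control, 3 Runx1KO and 3 ZebDKO libraries and a short line at the mean. The Osr1 points of control cells, 64.1 to 70.9 TPM, lie far above those of Runx1KO cells, 0.3 to 0.5 TPM, while Gdnf was near 0 in Runx1KO and highest in ZebDKO libraries.

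Transcription factor genes of the kidney and of epithelial-mesenchymal transition stood near closing bound regions. Osr1, an early regulator of nephron progenitors, had 3 of them, 281.6, 324.1 and 657.2 kb downstream of its start, with Runx1 folds of 7.30, 8.47 and 8.76. It measured 70.9, 64.1 and 64.3 TPM in control, 0.3, 0.5 and 0.4 in Runx1KO and 18.7, 18.9 and 17.1 in ZebDKO libraries. No line overlapped another, and the log2 fold change was -5.59 in Runx1KO (SE 0.07, adjusted p 6.95e-09, limma) and -1.81 in ZebDKO cells (SE 0.06, adjusted p 2.41e-07). Of 24 kidney mesenchyme factors, 8 tested genes were near a closing bound region and Osr1 alone was called lower in Runx1KO cells. Of all genes tested near such a region 14.6% were lower, and 5.17% of all tested genes with a position. Tbx18 (log2 fold change -0.80), Foxd1 (-0.58) and Meis2 (-0.43) stayed under the limit, as did Hmga2 (0.52), Pax8 (0.21) and Lhx1 (-0.13).

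Zeb1, a repressor of epithelial genes, had 1 closing bound region 194.3 kb upstream of its start with 2 Runx cores and an AP-1 site in the window. Its level was 15.1, 14.2 and 15.6 TPM in control, 0.1, 0.2 and 0.2 in Runx1KO and 16.8, 16.6 and 14.8 in ZebDKO libraries, the last as a whole-gene level that does not check the exon deletion. The fall in Runx1KO cells was -3.78 on the log2 scale of TPM + 1 (SE 0.07, adjusted p 2.78e-08, limma). Zeb2 fell by 2.37 on the same scale (adjusted p 3.06e-07). Its domain held 8 closing regions, and none of the 8 overlapped a Runx1 or Runx2 peak in the deposited lists, so it has no closing bound region by the rule used here. This differs from the study, which displays a possible enhancer downstream of Zeb2. The study reports it as bound by both factors in control cells and less open in Runx1KO cells. The source of the difference was not tested. Twist2, another mesenchymal factor, with 1 region 223.4 kb upstream, stood at 920.4, 889.1 and 934.5 TPM in control against 347.7, 348.9 and 355.8 in the Runx1KO group. The log2 difference was -1.38 (SE 0.03, adjusted p 2.69e-08), and ZebDKO libraries were in between at 581.0, 541.3 and 589.1 TPM.

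Gdnf, the ligand that draws the ureteric bud toward the mesenchyme through the receptor Ret, had 1 closing bound region 52.1 kb downstream of its start. Runx1 was enriched 4.38-fold there. Runx2 was enriched 8.52-fold in the control list and 8.02-fold in the Runx1KO list, which were not scaled to each other and are not compared. The libraries held 13.1, 11.4 and 13.6 TPM in control, 0.1 in all 3 of Runx1KO, and 38.6, 41.4 and 39.4 in ZebDKO. Gdnf was thus lower in Runx1KO (log2 fold change -3.64, SE 0.08, adjusted p 5.95e-08, limma) and higher in ZebDKO cells (1.58, SE 0.07, adjusted p 1.03e-06). In the direct comparison of Runx1KO with ZebDKO cells, chosen after the data were seen, the difference was -5.21 (adjusted p 7.91e-09, limma). In both comparisons with Runx1KO cells Gdnf passed the filter through the other line alone, so these p-values add nothing to the levels. Slit2, a guidance ligand that limits Gdnf expression, was lower in Runx1KO libraries at 0.1 TPM in each, against 6.4, 5.7 and 6.5 in control (log2 fold change -2.71, adjusted p 2.04e-07).

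In the TGF-beta and activin list of 28 genes, 10 had a closing bound region and 7 of these were tested, of which 4 were lower in Runx1KO cells and none higher, where 14.6% of all genes tested near such a region were lower. Inhbb, 1 of the 4, passed the filter through control libraries alone, so its call adds nothing to this count. Among genes near such a region with at least 1 TPM in a library of each line, 9.91% were lower. Inhbb, which encodes an activin subunit, measured 48.9, 45.6 and 45.4 TPM in control, 0.2, 0.1 and 0.1 in Runx1KO and 4.3, 4.1 and 5.2 in ZebDKO libraries. Its log2 fold change was -5.39 in Runx1KO cells (SE 0.06, adjusted p 4.74e-09, limma) and -3.11 in ZebDKO cells, and the lines did not overlap. The 2 regions near Inhbb were also placed near Gli2, a Hedgehog effector, which fell by 3.27 on the log2 scale (adjusted p 3.99e-08). Tgfbr3, a TGF-beta co-receptor with 3 regions, was lower in both knockouts, at 31.6, 29.1 and 30.0 TPM in control, 9.8, 9.0 and 11.5 in Runx1KO and 3.8, 4.0 and 4.3 in ZebDKO libraries. Tgfb2, a ligand (log2 fold change -2.33), and Ltbp1, a latency protein (-1.79), were also lower in Runx1KO cells. Smad3, the signal transducer, had 4 closing bound regions and stood at 67.3, 63.8 and 67.7 against 56.0, 54.4 and 56.2 TPM, a log2 fold change of -0.25 (SE 0.03, adjusted p 0.000495). Tgfbr2 with 3 regions had 0.27, also under the limit.

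Of 17 listed Wnt pathway genes, 7 were tested near a closing bound region, 6 lower and 1 higher in Runx1KO cells. Lef1, Sfrp2 and Wnt5a passed the filter through control libraries alone and Wnt11 through Runx1KO libraries alone, so their calls add nothing to this count. Of all genes tested near a closing bound region 14.6% were lower and 4.59% higher. Over all tested genes with a position the shares were 5.17% and 7.71%. Lef1, a nuclear partner of beta-catenin, had 2 regions 159.3 and 177.5 kb upstream and measured 9.4, 8.4 and 9.2 TPM in control, 0.1, 0.1 and 0.2 in Runx1KO and 5.8, 5.4 and 6.7 in ZebDKO libraries. The log2 fold change was -3.14 (SE 0.08, adjusted p 1.02e-07, limma) in Runx1KO cells and -0.52 in ZebDKO cells. Wnt5a, a non-canonical ligand, fell by 3.23 on the same scale (adjusted p 6.85e-08), with 1 region 680.6 kb upstream. The receptor Fzd1 (log2 fold change -1.29), the factor Tcf7l1 (-1.40) and Dkk3 (-1.42) were also lower. Sfrp2, a secreted Wnt modulator, stood at 11.1, 8.5 and 11.2 TPM in control and was listed at 0 in all 3 Runx1KO libraries. Wnt11, with 2 regions, was the 1 higher gene, at 0.0, 0.1 and 0.1 TPM in control against 1.2, 1.4 and 1.2 in Runx1KO libraries, and its call was lost with quantile normalization (log2 fold change 0.98).

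Of 26 matrix and adhesion genes, 9 tested were near a closing bound region, 6 lower and 1 higher in Runx1KO cells. Col3a1, 1 of the 6, passed the filter through control libraries alone, so its call adds nothing to this count. Of all genes tested near a closing bound region 14.6% were lower and 4.59% higher. Over all tested genes with a position the shares were 5.17% and 7.71%. Tnc, an extracellular matrix glycoprotein, measured 89.4, 80.8 and 89.8 TPM in control, 1.3, 1.1 and 1.0 in Runx1KO and 97.6, 106.0 and 97.0 in ZebDKO libraries. The fall was -5.36 (SE 0.07, adjusted p 7.10e-09, limma) and ZebDKO libraries lay above control with 0.21, under the limit. The collagen VI genes Col6a1 and Col6a2 share 1 region 57.0 and 45.5 kb from their starts and fell by 3.33 and 4.89 on the log2 scale. Fibronectin, Fn1, had -1.498 and collagen XII, Col12a1, -3.63, each with 1 region. Thbs1, an adhesive glycoprotein with 2 regions enriched 12.4-fold and 9.52-fold, moved the other way, at 190.0, 179.0 and 191.9 TPM in control against 360.0, 396.6 and 402.1 in Runx1KO libraries. Igfbp4, which binds insulin-like growth factors, stood at 63.3, 67.4 and 66.7 TPM in control, 0.6, 0.3 and 0.6 in Runx1KO and 59.9, 57.7 and 66.5 in ZebDKO libraries. Its ZebDKO libraries overlapped the control ones.

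The lists were read against the medians of all their tested genes, since each was chosen with these data known and no test over a list was made. Over all tested genes with a position 5.17% were lower and 7.71% higher in Runx1KO cells. With at least 1 TPM in a library of each line these shares were 3.15% and 4.87%. The list counts below include genes that passed the filter through 1 line alone, and such calls add nothing to them. Among the lower genes these are Gdnf, Slit2, Zeb1, Zeb2, Osr1, Inhbb, Lef1, Wnt5a, Sfrp2, Col3a1, Pak3 and Igfbp4. Of the tested genes of the TGF-beta list, 5 of 22 were lower and 2 higher in Runx1KO cells, with a median log2 fold change of 0.02 over the list and -1.498 near closing bound regions. The Wnt list had 9 of 14 lower and 2 higher, with medians of -1.41 and -1.42, and the matrix list 11 of 20 lower and 2 higher, with medians of -1.34 and -1.498. Among the smaller sets, 3 of 7 tested factors of epithelial-mesenchymal transition were lower and 1 higher, and 2 of 8 Gdnf and Ret genes were lower and 2 higher. The Igf list had 3 of 8 lower and none higher, the actin and Pak list 3 of 13 lower and 1 higher, the AP-1 and Tead list 0 of 13 lower and 3 higher, and the kidney factors 2 of 16 lower and 1 higher. None of 9 Runx and corepressor genes passed the limit in either knockout. Of the genes of these lists near a closing bound region that are not named above, Tpm1 (log2 fold change -0.58), Tmsb10 (-0.16), Igf2r (0.21), Spry4 (0.18), Fstl1 (0.03), Itgb3 (-0.95) and Loxl2 (-0.96) stayed under the limit in Runx1KO cells, while Foxc2, Fbln2, Ltbp2, Bmpr1b and Grem1 were under the filter. Itgb3 and Loxl2 passed the limit under some other settings, given in the last section.

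Pak3, a kinase that acts on the actin cytoskeleton, was at 10.6, 9.7 and 10.4 TPM in control, 0.1 in each Runx1KO and 6.0, 6.5 and 5.8 in ZebDKO libraries, with 1 region 16.9 kb upstream. The log2 fold change in Runx1KO cells was -3.35 (SE 0.07, adjusted p 3.73e-08, limma). Zfp810, a zinc finger gene, measured 13.7, 11.9 and 13 TPM in control and was listed at 0 in all 3 Runx1KO libraries, where ZebDKO libraries held 5.4, 4.6 and 4.4 TPM. Both genes had a window with at least 1 Runx core among the sequences given above.

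Rbpj, the nuclear effector of Notch signalling, had 4 closing bound regions and stood at 35.0, 32.5 and 33.5 TPM in control, 15.7, 15 and 15.6 in Runx1KO and 29.2, 32.0 and 29.5 in ZebDKO libraries. Its log2 fold change was -1.08 (SE 0.04, adjusted p 8.20e-07, limma) in Runx1KO cells and -0.15 in ZebDKO cells. With 3 regions each, Sema5a, a guidance cue, fell by 4.64, and Kif26b, a kinesin-like gene of the kidney mesenchyme, fell by 4.14. Of the others, Bmf, a pro-apoptotic factor, fell by 2.33. Il1r1, the interleukin 1 receptor, fell by 1.88. Gas1, a Hedgehog co-receptor with 3 regions, was lower in both knockouts, and lower in ZebDKO (4.4, 5.5 and 5.6 TPM) than in Runx1KO libraries (12.8, 10.5 and 11.6 TPM), where control held 72.2, 68.9 and 72.7 TPM. The direct log2 difference of Runx1KO from ZebDKO cells was 1.04 (SE 0.10, adjusted p 4.99e-05, limma), but 0.89 with median-ratio scaling, 0.79 with quantile normalization, 0.97 without Runx1KO replicate 1 and 0.94 without ZebDKO replicate 1, all under the limit. With 2 regions, Agpat4, a lysophospholipid acyltransferase, fell by 3.69 (adjusted p 2.24e-08).

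Some genes near closing bound regions rose. Tmem252, a membrane protein gene with 2 regions, went from 2.0, 1.9 and 2.1 TPM in control to 44.8, 48.4 and 47.6 in Runx1KO and 10.8, 12.7 and 12.8 in ZebDKO libraries. The log2 fold change was 4.00 (SE 0.05, adjusted p 6.95e-09, limma) in Runx1KO cells and 2.12 in ZebDKO cells. Acox2, a peroxisomal oxidase gene that holds the region enriched 11.9-fold for Runx1 in an intron, rose by 2.74, and Camta1, a transcriptional activator, by 2.06. F2rl1, a protease-activated receptor, was at 102.1, 103.9 and 107.8 TPM in control against 334.7, 344.1 and 341.6 in Runx1KO libraries. Rab20, a small GTPase gene with 3 regions in introns of its neighbour Col4a2, was higher in both knockouts, with 1.38 in Runx1KO and 3.01 in ZebDKO cells. Among AP-1 genes near these regions, Atf3 rose by 1.43 in Runx1KO cells, whereas Fosl1, 2.7 kb from a region enriched 10.2-fold, had 0.16 in Runx1KO and 1.22 in ZebDKO cells.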

How the data were processed

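The series measured RNA by RNA-seq, Runx1 and Runx2 binding by ChIP-seq and open chromatin by ATAC-seq in mK4 cells, on mm9. The authors trimmed reads (Trim Galore), aligned them with STAR, removed duplicates and counted them with featureCounts 1.6.2 on RefSeq genes. They deposited TPM for 9 libraries (24953 genes) and for 6 libraries (32792 names, 26 of them turned into dates and dropped). Gene lengths and the use of strand in counting are not given in the sources used here.

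The ChIP-seq lists were called by the authors with MACS2 on pooled replicates, and peaks that the Runx1 antibody also gave in knockout cells were taken out. They give the authors' fold over local background, and as deposited the -log10 q of MACS2. The ATAC-seq lists came from peaks in at least 2 of 3 replicates, split by the authors' own comparison. Their deposited log2 fold change and -log10 p columns hold that comparison and were not used, and the tool behind them is not given in the sources used here. No list has values per replicate, and depth cannot be read from TPM or peak lists, so no interval or floor was set on TPM.

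Regions were matched by overlap of at least 1 bp. Motifs were searched on both strands of 200 bp of the mm9 reference genome (NCBIM37), around the Runx1 summit or, without a Runx1 peak, the middle of the region. Genes came from GENCODE protein-coding models of that build (22270 models, of which 20337 were matched to the TPM table by name or synonym). Expression was tested with limma 3.58.1 (R 4.3.3), with a variance trend on log2(TPM + 1), in genes with at least 1 TPM in 3 of the 6 libraries compared and Benjamini-Hochberg adjustment over all tested genes. Fold changes on this scale understate those of genes near 0. Intervals are Wilson 95% intervals. The script for the fit was tested on simulated data with known changes. Python 3.11.15, pandas 2.3.3, pysam 0.24.0 and scipy 1.17.1 did the rest.

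The regions and gene lists were chosen with earlier results of these data known. Named genes are the 12 called genes with the most regions, the 8 largest falls and 5 largest rises among called genes with at least 2 regions, the loci the study displays, and listed genes near a region, of which 1 is not reported here. Replicate numbers were checked for pairing and did not pair the libraries (largest correlation of deviations 0.0646 in size), so no block was used. Alternatives were other overlaps, peak limits, windows, gene placings, pseudocounts, filters, scalings, tables, fold limits and each library left out.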

Additional observations from a re-analysis of the deposited data

How the results depend on the processing

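The number of closing regions bound by Runx1 ranged from 712, with Runx1 peaks at or above the median fold of their list, to 1026. The share with a Runx2 peak in control cells was 54.4% when 50% of the region had to be covered and 83.8% with peaks at or above the median fold, and in Runx1KO cells 44.4% and 65.3%. With the whole region searched 84.5% held the Runx core and 43.6% an AP-1 site, and around the middle of the region 50% and 20.9%. Genes lower and higher in Runx1KO cells numbered 97 and 28 of 549 tested (17.7% and 5.10%) when placed by the nearest start within 100 kb, 52 and 16 of 311 (16.7% and 5.14%) within 20 kb, and 361 and 161 with a 1.3-fold limit. For ZebDKO cells these were 66 and 43 of 549 (12.02% and 7.83%), 31 and 23 of 313 (9.90% and 7.35%), and 419 and 195. No share over all genes is given for the 1.3-fold limit, so its counts are not a result about these regions. By adjusted p alone (limma), 55.7% of genes near closing bound regions were lower in ZebDKO cells, where 53.8% of all were. There 27.1% were higher, where 27.2% of all were. In Runx1KO cells 52.9% were lower, where 41.7% of all were, and 26.7% higher, where 31.1% of all were. Leaving out 1 library gave 96 to 162 lower and 34 to 51 higher genes in Runx1KO cells, and 90 to 120 and 60 to 80 in ZebDKO cells. Without control replicate 1, 2 or 3 the lower count in Runx1KO cells was 98, 101 and 96, because 60 of the 159 genes then fell under the filter and were not tested, and 97, 99 and 95 of the same genes were still called. The other alternatives, such as pseudocounts, filters and scalings, gave 127 to 178 lower and 41 to 61 higher genes in Runx1KO cells.

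A fit with the replicate number as a block changed none of the 4 counts (159 and 50 in Runx1KO, 113 and 79 in ZebDKO cells). Among named genes, the difference of Rbpj in ZebDKO cells turned to 0.045 on the log2 scale with median-ratio scaling and 0.031 with quantile normalization. That of Atf3 between Runx1KO and ZebDKO cells turned to -0.0196 with median-ratio scaling, and that of Loxl2 in Runx1KO cells to 0.015 in the 6-library table. The causes were not tested. For Runx1KO against control, 581 of 589 values of named genes under the other alternatives kept their direction and side of the threshold. For ZebDKO against control 510 of 520 did, with 2 calls lost, both of Tbx18, and for Runx1KO against ZebDKO 479 of 492, with 5 calls lost there and 2 on leaving out 1 library. Runx1KO against control gained 6 calls. Itgb3 reached -1.94 with a pseudocount of 0.1 TPM and -1.11 with quantile normalization, and Loxl2 -2.38 and -1.08. Tle4 reached 1.01 with that pseudocount and 1.003 with median-ratio scaling. Without Runx1KO replicate 1, Itgb3 reached -1.02. Itgb3 and Loxl2 passed the filter through control libraries alone, so their gained calls add no support. Depth is unknown for the peak lists, so a region without a peak is not shown to be unbound.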
